A study of Mus musculus with 3 samples.

Results

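Dividing macrophages of the fetal mouse lung are described here, 267 of 913 macrophage barcodes in 3 single-cell libraries that hold 12967 barcodes, of which 9546 passed the filters on depth, genes and mitochondrial share. A barcode counted as a macrophage with at least 20 unique molecules (UMIs) of C1qa, C1qb and C1qc together and at most 5 UMIs of Epcam. A macrophage counted as dividing with at least 3 UMIs of Mki67 and Top2a together, and the other 646 macrophages, with fewer than 3, are the cells it is set against. The study sequenced lungs of C57/B6 embryos at E14.5, pooled from 2 females before dissociation, with no genetic change or treatment in any library. Cells of 2 libraries were sorted as Epcam+ Icam+, with antibodies against Epcam and Icam1, and cells of 1 library as Epcam+. The macrophages are therefore cells that passed a gate meant for epithelium, and nothing here measures the macrophages outside it. They numbered 129 dividing of 438 in Epcam+ Icam+ replicate 1, 121 of 427 in Epcam+ Icam+ replicate 2 and 17 of 48 in the Epcam+ library.

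Macrophages settle in the lung before birth, from yolk sac and fetal liver precursors, and take up debris and signal to the growing tissue. Many resident macrophages keep their number by dividing in place, so a cell can carry the receptors and lysosomal enzymes of a macrophage while it copies its DNA. In the cell cycle, S phase genes build nucleotides, load the replication helicase and package new DNA in histones, and G2 and mitosis genes then condense the chromosomes, attach them to the spindle and split the cell. Ki-67, encoded by Mki67, coats mitotic chromosomes, and topoisomerase II alpha, encoded by Top2a, untangles replicated DNA. Both are made mainly from S phase to mitosis, so the cells chosen by them were chosen for other genes of the cycle as well.

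The libraries held 73816221, 67519731 and 84395900 UMIs on the genes shared by all tables, in Epcam+ Icam+ replicate 1, Epcam+ Icam+ replicate 2 and the Epcam+ library, and values per library are given in that order throughout. The Epcam+ Icam+ libraries shared 3 barcodes with each other, and Epcam+ Icam+ replicate 2 shared 1 with the Epcam+ library. None of these barcodes was a dividing macrophage in both libraries that held it. The Epcam+ library was counted with another software version and gene table, and its macrophage sums rest on few cells, and the counts of genes called are also given without it for the main lists. The labels name no separate pool or litter for the libraries, so p-values measure only the spread between libraries, which may be technical.

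The dividing macrophages ranged widely in the 2 genes that chose them. Their summed Mki67 and Top2a UMIs had a median of 12, 12 and 4 in the 3 libraries, with a highest value of 78, 71 and 32. Mki67 alone had a median of 6, 5 and 2 UMIs per dividing macrophage, and Top2a a median of 8, 6 and 3. Just inside the threshold, 21, 20 and 7 macrophages had exactly 3 UMIs, and just outside it, 45, 51 and 9 macrophages had 2. At 0 UMIs stood 189, 180 and 12 macrophages. In the Epcam+ library the dividing macrophages thus lay closer to the threshold than in the Epcam+ Icam+ libraries, and its dividing epithelial cells also had a lower Mki67 level, at 86.6 UMIs scaled to a common total (CPM), against 286.5 and 269 in Epcam+ Icam+ replicates 1 and 2.

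The share of macrophages that met the rule was 29.5%, 28.3% and 35.4%, with exact 95% binomial intervals of 25.2% to 34.0%, 24.1% to 32.9% and 22.2% to 50.5%, which cover counting error only. The intervals of the 3 libraries overlapped. The rule counts UMIs without regard to depth, and the dividing macrophages were the deeper cells, with a median of 30989, 29782 and 27945 UMIs, against 20853, 21368.5 and 23442 in the other macrophages. With every cell thinned to 5000 UMIs before the rule was applied, the shares were 12.4%, 12.7% and 6.38%. A threshold of 2 UMIs gave 39.7%, 40.3% and 54.2%, and a threshold of 6 UMIs gave 20.8%, 19.9% and 12.5%. With Epcam limited to 1 UMI the shares were 27.2%, 25.4% and 22.7%, the last 5 of 22 cells. The share is therefore a share of cells past a count, not the fraction of macrophages in cycle. Among epithelial cells of the same libraries, with at least 6 UMIs of Epcam and at most 5 of C1q, the same rule took 48.7%, 47.9% and 60.5%, and 27.9%, 27.4% and 17.7% after thinning. The share was lower in macrophages than in epithelial cells in 3 of 3 libraries at either depth, and this difference was not tested.

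**Figure D1:**
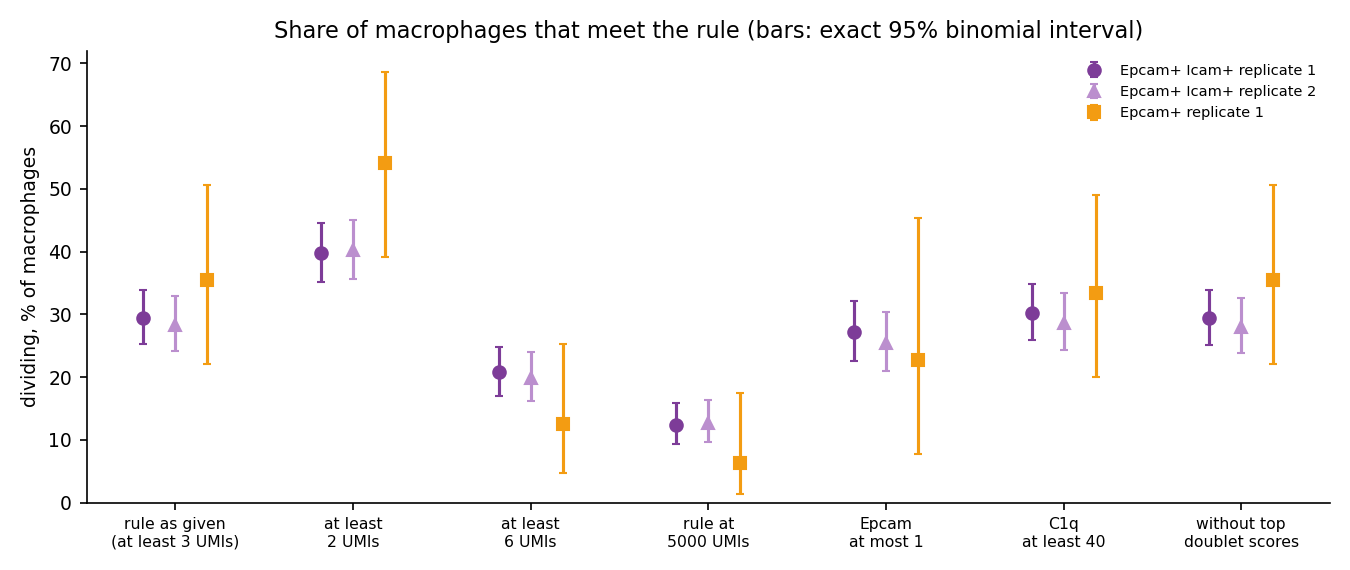
Share of macrophages that met the rule for dividing cells, in percent (y axis), under the rule as given and under 6 other settings (x axis), with 1 point per library and exact 95% binomial intervals as bars. The shares fall to 12.4%, 12.7% and 6.38% when all cells are thinned to 5000 UMIs, and to 22.7% in the Epcam+ library when Epcam is limited to 1 UMI.

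The label of macrophage held against the marker genes. The 30 genes of the macrophage identity list, which leave out the C1q genes of the rule, summed to 13226, 13392 and 9541 CPM in dividing macrophages, against 15639, 15812 and 14287 in other macrophages, and none of the 30 was at 0 in all 3 dividing sums. Markers of mesenchyme summed to at most 14.9 CPM in dividing macrophages, and Col1a2, Pdgfra, Tcf21 and Postn were at 0 in all 3 libraries. Mast cell and basophil markers summed to at most 11.8, with 10 of 12 genes at 0, among them Cpa3, Cma1 and Mcpt8. Neutrophil markers also summed to at most 11.8, with Elane, Mpo, Ngp and Camp at 0. Erythroid markers summed to 12.4, 34.7 and 117.6 CPM in dividing macrophages, against 20.7, 29.8 and 86.7 in other macrophages, with Alas2 at 0 in the dividing cells. Endothelial markers summed to 37.2, 11.6 and 47.1 CPM in dividing macrophages, against 27.3, 36.6 and 66.7 in other macrophages, with Cdh5 and Kdr at 0 in the dividing cells. Lymphoid markers summed to at most 47.9 CPM and markers of megakaryocytes and progenitors to at most 32.6 CPM in dividing macrophages, with 6 of 12 and 4 of 10 genes at 0. Of the genes on these lists, 7 of 12 for mesenchyme, 5 of 8 for endothelium and 6 of 13 for red cells were at 0 in all dividing sums, and the others were detected. The erythroid sum of the Epcam+ library was the highest of these, and the part of such RNA in the results was not tested.

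Epithelial RNA was present in both kinds of macrophage. The 18 epithelial markers summed to 631, 1020 and 1024 CPM in dividing macrophages, against 645, 516 and 1040 in other macrophages, with cells thinned to 5000 UMIs. On the full counts these levels were 5.97%, 8.26% and 14.3% of the epithelial level in dividing macrophages, against 6.03%, 4.49% and 14.4% in other macrophages. Epithelial RNA at these shares would bring 0.797, 1.06 and 1.11 Mki67 and Top2a UMIs per dividing macrophage, against 18.8, 17.0 and 9.0 counted. Per other macrophage it would bring 0.541, 0.408 and 0.834 UMIs, against 0.534, 0.578 and 0.903 counted. The part of carried RNA in the rule sum was not tested. Of the dividing macrophages, 1, 2 and 0 were among the cells with the highest doublet scores.

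The dividing macrophages varied in their transcripts of the S phase list and of the G2 and mitosis list. At 5000 UMIs per cell, the 73 genes of the G2 and mitosis list, which leaves out Mki67 and Top2a, had a median sum of 34, 29 and 27 UMIs in dividing macrophages, against 5, 5 and 11.5 in other macrophages. The 48 genes of the S phase list had a median sum of 10, 8 and 14 UMIs in dividing macrophages, against 3, 3 and 7 in other macrophages. Taking at least 20 UMIs of the G2 and mitosis list and at least 10 of the S phase list as high, 89 of the 267 dividing macrophages (33.3%) were high in both, 87 (32.6%) in G2 and mitosis alone, 44 (16.5%) in S phase alone and 47 (17.6%) in neither. Of 625 other macrophages with enough UMIs, 9 (1.44%) were high in both, 21 (3.36%) in G2 and mitosis alone, 77 (12.3%) in S phase alone and 518 (82.9%) in neither. These limits cut a continuous range, so the 4 parts are ranges of 2 sums, not phases. Some of the other macrophages thus carried cycle transcripts too, more often of S phase alone than of G2 and mitosis.

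Across classes of the rule sum, the median G2 and mitosis sum rose more than the median S phase sum. The lists differ in size, with 73 and 48 genes. The classes are made from Mki67 and Top2a, themselves cycle genes, so the rise describes cells so chosen and is no independent result. Over all 3 libraries, the median G2 and mitosis sum was 5, 8, 13, 19, 33.5 and 49 UMIs in macrophages with 0, 1 to 2, 3 to 5, 6 to 10, 11 to 20 and at least 21 Mki67 and Top2a UMIs. The median S phase sum in the same cells was 3, 4, 8, 8, 11.5 and 11 UMIs. Of the 95 macrophages in the highest class, 94 had at least 20 UMIs of the G2 and mitosis list, and of the 85 in the lowest class inside the rule, 24 did. Macrophages just inside the rule thus mostly stayed below this limit, while those far inside it nearly all passed it. Median epithelial marker UMIs were 1, 2, 3, 2, 1 and 1 from the lowest to the highest class, and their part was not tested. Median depth differed along the same classes, at 20496.5 UMIs per cell in the class with 0 and 36609 in the highest, and its part in the classes was not tested beyond the thinning.

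**Figure D2:**
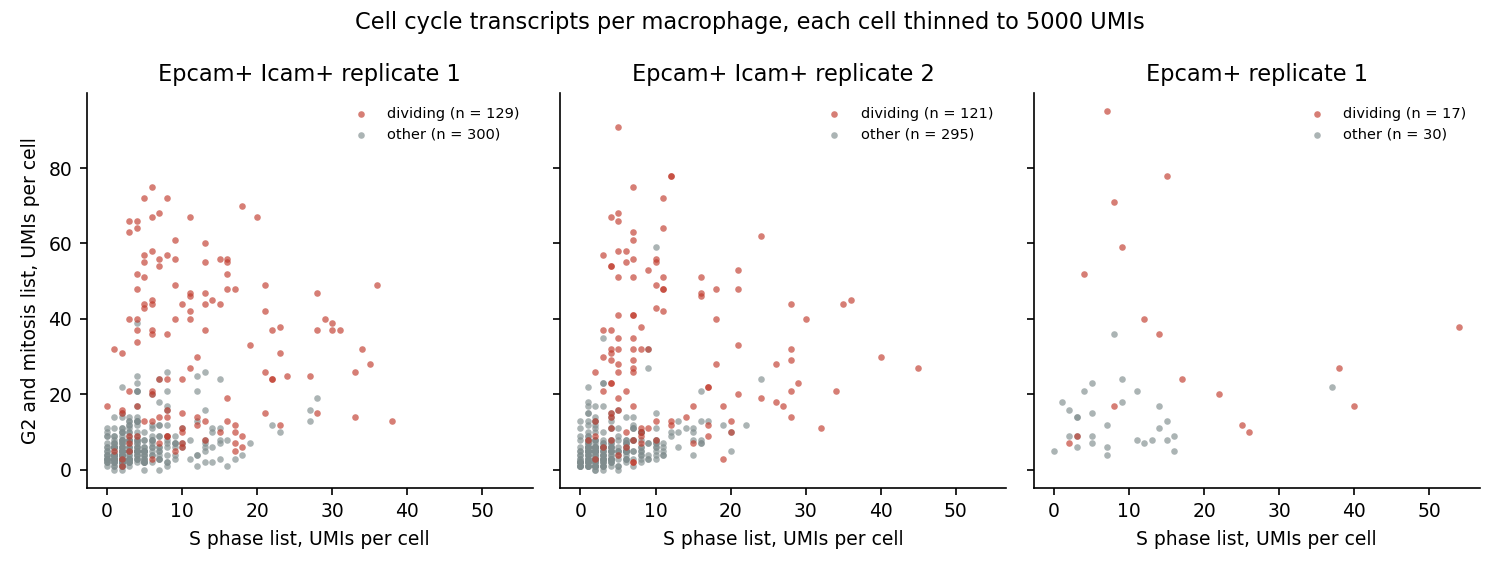
Each point is 1 macrophage thinned to 5000 UMIs, with its UMIs of the S phase list (x axis) and of the G2 and mitosis list (y axis), in 1 panel per library. Dividing macrophages (red) extend upwards and to the right, with median G2 and mitosis sums of 34, 29 and 27 UMIs, while other macrophages (grey) gather near the origin, at 5, 5 and 11.5.

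Counts were summed over the dividing and over the other macrophages of each library, with every cell thinned to 5000 UMIs, and the dividing sums were set against the other sums within libraries. Of 6377 genes tested with edgeR, 286 (4.48%) were higher and 144 (2.26%) lower in dividing macrophages at an adjusted p under 0.05, and the median log2 fold change of all genes was -0.02. Without Epcam+ Icam+ replicate 1 the counts were 120 higher and 19 lower of 4488 genes tested. Without Epcam+ Icam+ replicate 2 they were 131 and 24 of 4668, and without the Epcam+ library 411 and 314 of 7274. The last are 5.65% and 4.32% of the genes tested there. All 430 genes called in either direction with 3 libraries (6.74%) were also called, in the same direction, without the Epcam+ library. DESeq2 called 119 genes higher and 12 lower of the same 6377. Since 2 genes of the cycle chose the cells, the tests on other cycle genes describe cells so chosen and are no independent evidence that they divide.

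Genes of G2 and mitosis rose together in dividing macrophages. Of 73 genes on the list, 61 passed the filter on low counts, 58 rose, none fell, and their median log2 fold change was 2.78. A gene scarce in other macrophages can pass this filter through its dividing sums, so the filter can raise the share that rose. Without the filter, 61 of 73 rose and none fell, at a median of 2.74. Cdk1, the kinase that drives entry into mitosis, stood at 206, 235 and 294 CPM in dividing macrophages, against 38.7, 38.6 and 53.3 in other macrophages (log2 fold change 2.42, SE 0.165, edgeR adjusted p = 1.25e-13). Ccnb1, the cyclin B1 partner of Cdk1, stood at 62.0, 67.8 and 188 CPM in dividing macrophages, against 6.67, 2.71 and 46.7 in other macrophages (log2 fold change 3.27, SE 0.335, edgeR adjusted p = 3.2e-09). The Epcam+ library was the highest of the 3 for both genes in each class, and the classes did not overlap, as for 801 genes in all (12.6%).

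Ube2c, the ubiquitin conjugating enzyme of the anaphase promoting complex, stood at 355, 340 and 388 CPM in dividing macrophages, against 65.3, 43.4 and 93.3 in other macrophages (log2 fold change 2.54). Birc5, or survivin, a subunit of the chromosomal passenger complex, stood at 288, 304 and 282 CPM in dividing macrophages, against 30.7, 34.6 and 147 in other macrophages (log2 fold change 2.81). Its dividing levels were close to each other, while the other macrophages of the Epcam+ library stood apart from those of the Epcam+ Icam+ libraries. Cenpf, a kinetochore protein, stood at 133, 119 and 118 CPM in dividing macrophages, against 13.3, 12.2 and 20.0 in other macrophages (log2 fold change 3.16). For these 3 genes every dividing value lay above every other value.

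Large changes were seen in genes of the spindle. Hmmr, a microtubule binding protein, stood at 82.2, 86.0 and 58.8 CPM in dividing macrophages, against 2.67, 0.678 and 13.3 in other macrophages (log2 fold change 5.02, SE 0.402, edgeR adjusted p = 5.88e-12). Tpx2, which activates Aurora A on the spindle, stood at 107, 95.9 and 70.6 CPM in dividing macrophages, against 4.0, 2.03 and 6.67 in other macrophages (log2 fold change 4.81). The same direction in every library was seen for the condensin subunit Ncapg (log2 fold change 4.65), the kinesin Kif11 (4.20), the midzone protein Prc1 (4.16), the kinetochore motor Cenpe (3.91), the kinesin Kif15 (3.88), the mitotic kinase Plk1 (3.81) and the spindle protein Nusap1 (3.63). Kif11 rested on a low count in the Epcam+ library, with 11.8 CPM in dividing and 0 in other macrophages. Ncapg rested on 0, 3 and 1 UMIs in other macrophages, and its log2 fold change was 3.72 without Epcam+ Icam+ replicate 1 and 5.65 without replicate 2, while that of Nusap1 was 4.66 and 3.01. Members that did not pass the test were Ckap5 (log2 fold change 0.77), Hjurp (1.14) and Gas2l3 (-0.05). With either Epcam+ Icam+ library left out, 41 members rose, of 43 tested without replicate 1 and 45 without replicate 2.

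**Figure D3:**
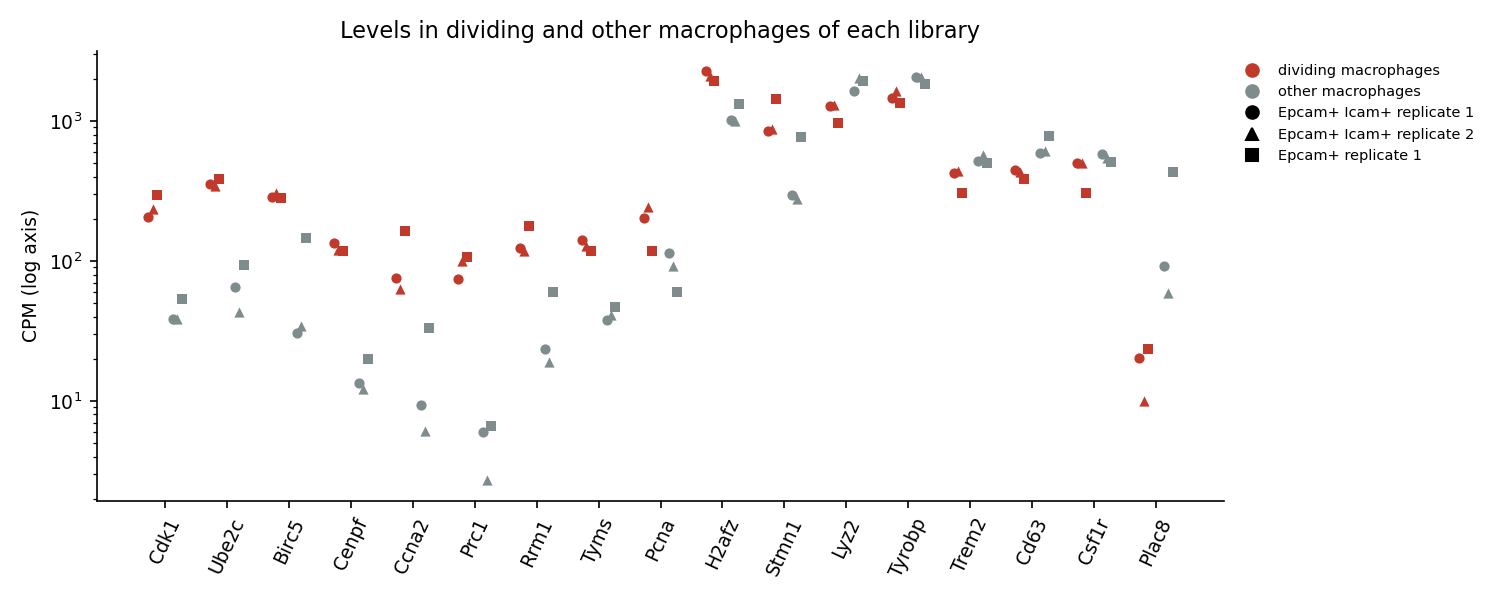
CPM on a log axis (y axis) for 17 genes (x axis) in dividing macrophages (red) and other macrophages (grey), with 1 symbol per library. For Cdk1, Ube2c, Birc5, Cenpf, Ccna2 and Prc1 the classes do not overlap. For Lyz2, Tyrobp, Trem2 and Cd63 the dividing values lie below the other values by less than the distances seen for the cycle genes, and Plac8 lies far lower in dividing macrophages.

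Many G2 and mitosis genes are known to share promoter elements, a CCAAT box bound by NF-Y and a cell cycle homology region. The latter, searched here only as TTTGAA or TTCGAA, is bound by the DREAM and B-MYB complexes. The promoters of 6 mitosis genes called higher in dividing macrophages are shown because they let these letters be seen in place. Each is the 150 bases before the RefSeq start (GRCm38.p6), 5' to 3' on the strand of the gene, with capitals where a motif lies on either strand: CCAAT, which reads ATTGG when on the other strand, or TTTGAA, which then reads TTCAAA, or TTCGAA, which reads the same on both. Ccnb1 lies at chr13:100786487-100786636 on the minus strand, Cdk1 at chr10:69352913-69353062 on the minus strand, Plk1 at chr7:122159285-122159434 on the plus strand, Birc5 at chr11:117849087-117849236 on the plus strand, Ube2c at chr2:164769779-164769928 on the plus strand and Cdc20, the activator of the anaphase promoting complex, at chr4:118437344-118437493 on the minus strand.
Cdk1: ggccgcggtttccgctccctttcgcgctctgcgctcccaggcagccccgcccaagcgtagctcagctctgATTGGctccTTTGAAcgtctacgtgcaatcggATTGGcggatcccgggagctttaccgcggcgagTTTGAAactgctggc
Ube2c: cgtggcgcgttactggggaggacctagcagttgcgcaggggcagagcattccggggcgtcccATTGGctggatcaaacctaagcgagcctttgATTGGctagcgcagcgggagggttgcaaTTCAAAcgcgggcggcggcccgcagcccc
Cdc20: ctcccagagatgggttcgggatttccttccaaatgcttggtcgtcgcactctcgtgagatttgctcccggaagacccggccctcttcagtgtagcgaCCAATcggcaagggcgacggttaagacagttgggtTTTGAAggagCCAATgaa
Ccnb1: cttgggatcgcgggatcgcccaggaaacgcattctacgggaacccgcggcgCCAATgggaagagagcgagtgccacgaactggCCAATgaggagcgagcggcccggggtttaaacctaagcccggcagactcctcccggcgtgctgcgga
Plk1: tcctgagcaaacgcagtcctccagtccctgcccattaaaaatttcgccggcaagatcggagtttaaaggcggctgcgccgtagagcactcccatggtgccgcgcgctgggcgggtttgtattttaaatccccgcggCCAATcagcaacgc
Birc5: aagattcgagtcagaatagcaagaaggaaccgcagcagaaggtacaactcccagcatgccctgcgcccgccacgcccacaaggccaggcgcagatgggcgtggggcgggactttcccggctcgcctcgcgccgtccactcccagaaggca
Cdk1 held 2 CCAAT boxes and 2 TTTGAA matches, and Ube2c and Cdc20 each held 2 CCAAT boxes and 1 TTTGAA match. Ccnb1 held 2 CCAAT boxes and Plk1 held 1, without TTTGAA or TTCGAA, and Birc5 held none of the letters in this window. Other forms of the homology region were not searched for, so its absence from these windows is not shown.

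The same letters were counted in the 250 bases before the start, on both strands, over all RefSeq promoter windows. Of the 58 G2 and mitosis genes that rose, 46 had a window, with 49 windows in all. CCAAT was in 77.6% of these windows, against 33.8% of all 32851 windows and 34.8% of those of genes tested. TTTGAA was in 44.9% of them, against 16.0% of all windows and 10.5% of those of genes tested. CCAAT together with TTTGAA or TTCGAA was in 44.9%, against 6.02% and 4.57%. In the 30 windows of 23 S phase genes that rose, CCAAT was in 56.7% and TTTGAA in 10.0%. In the 25 windows of 22 macrophage genes that fell, CCAAT was in 32.0% and TTTGAA in 16.0%. TTTGAA was thus frequent in the G2 and mitosis windows and near the background in the other groups, which is a description of letters and not of binding.

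S phase genes rose by less than those of mitosis, in cells that Mki67 and Top2a had chosen, so this order is no independent result. Of 48 genes on the list, 43 were tested, 31 rose, none fell, and the median log2 fold change was 1.28. Without the filter on low counts, 31 of 48 rose. Rrm1, the large subunit of ribonucleotide reductase, stood at 124, 117 and 176 CPM in dividing macrophages, against 23.3, 19.0 and 60.0 in other macrophages (log2 fold change 2.32, SE 0.217, edgeR adjusted p = 3.46e-10). Tyms, which makes thymidylate, stood at 141, 129 and 118 CPM in dividing macrophages, against 38.0, 41.4 and 46.7 in other macrophages (log2 fold change 1.66). Both enzymes supply nucleotides for DNA synthesis, and for both the classes did not overlap. Pcna, the sliding clamp of the replication fork, stood at 203, 243 and 118 CPM in dividing macrophages, against 115, 92.2 and 60.0 in other macrophages (log2 fold change 1.02, SE 0.148, edgeR adjusted p = 4.13e-06). It was higher in 3 of 3 libraries, and the dividing value of the Epcam+ library lay only just above the highest value of other macrophages.

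The helicase genes Mcm3 (log2 fold change 1.01), Mcm4 (1.03) and Mcm5 (1.28) rose, and Mcm2 (0.60) did not pass the test. Their calls were the less certain ones: without Epcam+ Icam+ replicate 1, Mcm3 (0.98), Mcm4 (1.04) and Mcm5 (1.10) did not pass, with edgeR adjusted p = 0.0656, 0.248 and 0.154. Without replicate 2, Mcm4 (0.93) did not pass, with an edgeR adjusted p = 0.284. Rrm2, the small subunit of ribonucleotide reductase, stood at 41.9, 39.7 and 106 CPM in dividing macrophages, against 6.67, 6.10 and 20.0 in other macrophages (log2 fold change 2.53). Clspn, a mediator of the replication checkpoint, had a log2 fold change of 3.05, which was 4.52 without Epcam+ Icam+ replicate 1 and 2.01 without replicate 2. Over the whole list, 17 members rose without Epcam+ Icam+ replicate 1, 20 without replicate 2 and 34 without the Epcam+ library.

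Histones and the proteins that handle chromatin rose as well. Of 22 histone genes of the Hist clusters tested, 18 rose and none fell; their median log2 fold change was 3.02. Hist1h2ap, an H2A gene, stood at 518, 628 and 882 CPM in dividing macrophages, against 35.3, 28.5 and 253 in other macrophages (log2 fold change 3.63, SE 0.194, edgeR adjusted p = 1.89e-16). Hist1h2ab stood at 89.9, 86.0 and 11.8 CPM in dividing macrophages, against 6.67, 8.14 and 0 in other macrophages (log2 fold change 3.47). Replication histones are near-identical copies of each other and mostly lack a poly(A) tail, which the 3' method captures, so the split of reads between single histone genes is uncertain.

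Of 24 genes of histone chaperones, chromatin proteins and tubulins, 24 were tested, 21 rose, none fell, and the median log2 fold change was 0.90. H2afz, the histone variant H2A.Z, stood at 2270, 2109 and 1929 CPM in dividing macrophages, against 1009, 1007 and 1320 in other macrophages (log2 fold change 0.93, SE 0.107, edgeR adjusted p = 3.51e-08). Stmn1, which destabilizes microtubules, stood at 853, 881 and 1447 CPM in dividing macrophages, against 298, 275 and 767 in other macrophages (log2 fold change 1.39). These are abundant transcripts, and the ratio of dividing to other macrophages was smaller in the Epcam+ library than in the Epcam+ Icam+ libraries. Ezh2, the methyltransferase of Polycomb repressive complex 2, had a log2 fold change of 1.60, Lmnb1, lamin B1, of 1.31, and Tuba1b, an alpha tubulin, of 1.53.

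Among cyclins, kinases and inhibitors few genes were called at this depth. Of 33 cyclins, kinases and inhibitors on the list, 21 were tested, 1 rose, none fell, and the median log2 fold change was 0.00. Of all genes tested 4.48% rose and 2.26% fell, so the count that rose is near the share of all genes. Of the 21, 8 had an unadjusted p under 0.05, and at greater depth more were called, with 5 higher and 4 lower of 26 at 10000 UMIs per cell and 10 higher and 5 lower of 31 without thinning. The gene that rose was Cdkn2c, which encodes p18, an inhibitor of the G1 kinases Cdk4 and Cdk6. It stood at 45.0, 29.8 and 58.8 CPM in dividing macrophages, against 2.67, 3.39 and 0 in other macrophages (log2 fold change 3.60, SE 0.459, edgeR adjusted p = 3.35e-07). The direction held in every library, though the Epcam+ library had no UMI in other macrophages. Ccnd1, cyclin D1, which partners Cdk4 in G1, stood at 69.8, 71.1 and 129 CPM in dividing macrophages, against 95.3, 92.2 and 66.7 in other macrophages, and did not pass (log2 fold change -0.37, SE 0.195, edgeR adjusted p = 0.328). Cdk4 stood at 197, 236 and 612 CPM in dividing macrophages, against 182, 167 and 353 in other macrophages, and did not pass either (log2 fold change 0.31, SE 0.127, edgeR adjusted p = 0.167).

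Macrophage identity genes made up a smaller part of the RNA in dividing macrophages. Of 30 genes, 29 were tested, none rose and 13 fell, and their median log2 fold change was -0.38. Tyrobp, the adaptor DAP12 that carries signals from activating receptors, stood at 1451, 1630 and 1341 CPM in dividing macrophages, against 2077, 2072 and 1853 in other macrophages (log2 fold change -0.51, SE 0.102, edgeR adjusted p = 0.000612). Lyz2, lysozyme, stood at 1276, 1307 and 965 CPM in dividing macrophages, against 1635, 2014 and 1927 in other macrophages (log2 fold change -0.65, SE 0.108, edgeR adjusted p = 3.73e-05). Both were lower in 3 of 3 libraries and the classes did not overlap. The transcription factor Cebpa (log2 fold change -0.81) fell, as did the lipopolysaccharide co-receptor Cd14 (-0.56), the Fc receptor Fcgr1 (-0.51) and the lysosomal protein Cd68 (-0.51). The F4/80 gene Adgre1 (-0.44), the lipid receptor Trem2 (-0.43) and the integrin Itgam (-0.99) fell as well. Itgam had 0 UMIs in dividing and 2 in other macrophages of the Epcam+ library, and its classes overlapped. It did not pass without Epcam+ Icam+ replicate 1 (edgeR adjusted p = 0.658).

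Csf1r, the receptor for the growth factor that macrophages need, stood at 504, 501 and 306 CPM in dividing macrophages, against 580, 540 and 507 in other macrophages, and did not pass (log2 fold change -0.29, SE 0.106, edgeR adjusted p = 0.114). Mrc1, the mannose receptor, stood at 664, 679 and 259 CPM in dividing macrophages, against 726, 674 and 407 in other macrophages, with a log2 fold change of -0.18. Csf1r was lower in 3 of 3 libraries, most of all in the Epcam+ library, and Mrc1 was level in Epcam+ Icam+ replicate 2. The number of identity genes that fell was 2 without Epcam+ Icam+ replicate 1, 1 without replicate 2, 16 without the Epcam+ library and 2 by DESeq2, while their median stayed between -0.33 and -0.41 in these fits. Without Epcam+ Icam+ replicate 1 the edgeR adjusted p of Tyrobp was 0.417, and without replicate 2 that of Lyz2 was 0.132 and that of Tyrobp 0.355.

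These levels are parts of a fixed number of UMIs, and the dividing macrophages held more UMIs in all. At full depth a dividing macrophage held a mean of 30737, 30283 and 29916 UMIs, against 20670, 21391 and 22305 in other macrophages, a ratio of 1.49, 1.42 and 1.34. The identity list summed to 404, 401 and 281 UMIs per dividing macrophage, against 319, 334 and 296 per other macrophage, a ratio of 1.27, 1.20 and 0.950. Lyz2 averaged 42.5, 45.5 and 33.5 UMIs per dividing macrophage, against 35.7, 44.0 and 37.6 per other macrophage. Tyrobp averaged 44.6, 45.7 and 40.4 UMIs, against 41.7, 43.5 and 41.5. Counted per cell, these genes were thus near or above the level of other macrophages in the Epcam+ Icam+ libraries and somewhat below it in the Epcam+ library, where the decrease per cell was smaller than in CPM. The genes of mitosis were higher on either scale, at 218, 197 and 238 UMIs per dividing macrophage for the G2 and mitosis list, against 29.0, 27.3 and 59.7 per other macrophage.

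**Figure D4:**
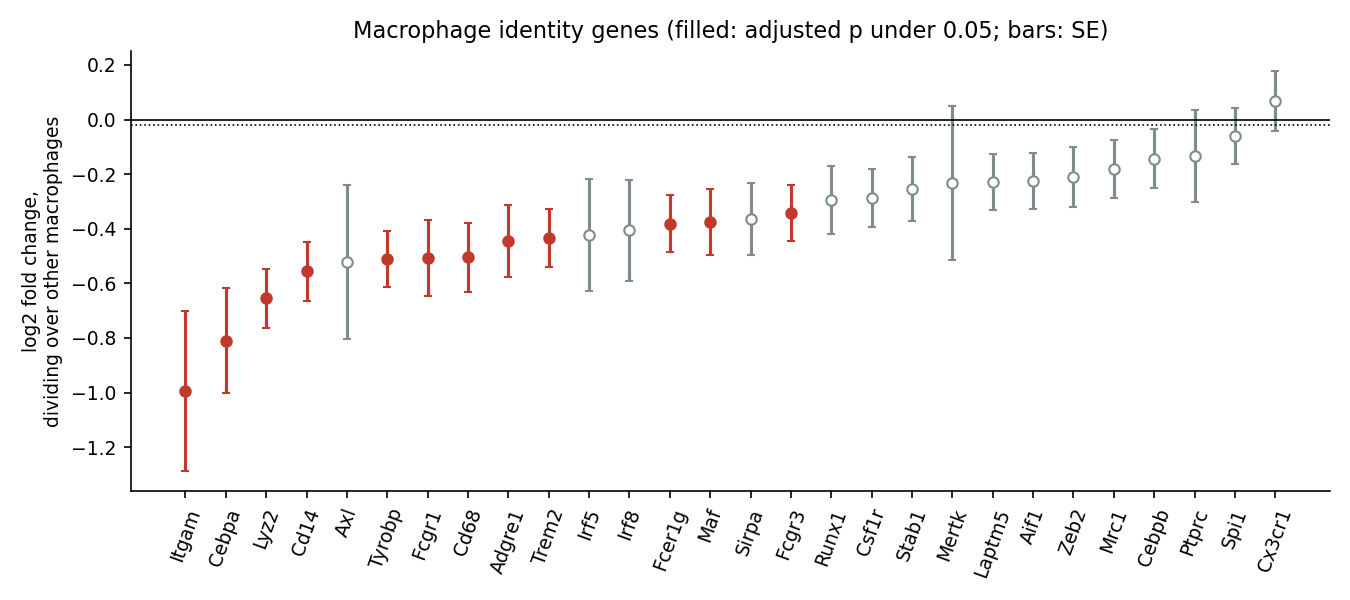
Log2 fold change of dividing over other macrophages (y axis, from CPM) for macrophage identity genes tested (x axis), with the SE as bars. The genes past the threshold are filled and all lie below 0, from -0.99 for Itgam to -0.34 for Fcgr3. Itgam had 0 UMIs in the dividing macrophages of the Epcam+ library. The dotted line marks the median of all genes, -0.02.

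Plac8, a gene of monocytes and myeloid precursors, fell further than any other named gene. It stood at 20.2, 9.92 and 23.5 CPM in dividing macrophages, against 92.7, 59.0 and 433 in other macrophages (log2 fold change -2.71, SE 0.277, edgeR adjusted p = 2.88e-09). Per cell at full depth it averaged 0.457, 0.405 and 0.824 UMIs in dividing macrophages, against 1.99, 1.03 and 4.71 in other macrophages, so it was lower on that scale too. Of 11 monocyte genes tested, 2 fell and none rose, at a median log2 fold change of -0.21, and the second was the chemokine receptor Ccr1 (-0.58), which did not pass with either Epcam+ Icam+ library left out (edgeR adjusted p = 0.282 and 0.353). Ccr2, the receptor that marks classical monocytes, had a log2 fold change of -0.10 and did not pass the test. The share of all genes tested that fell was 2.26%.

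Some genes of resident and specialised macrophages fell, beside 2.26% of all genes tested. Of 15 fetal and tissue-resident macrophage genes tested, 5 fell and none rose, at a median log2 fold change of -0.32. Igf1, a growth factor for neighbouring cells, stood at 149, 179 and 82.4 CPM in dividing macrophages, against 209, 245 and 233 in other macrophages (log2 fold change -0.61, SE 0.135, edgeR adjusted p = 0.00208). The lectin receptor Clec4n (-0.67) and the iron exporter Slc40a1 (-0.55) also fell. Of 13 genes known from homeostatic microglia, 5 fell and none rose, among them Gpr34 (-0.92), a receptor for lysophosphatidylserine. Without Epcam+ Icam+ replicate 1, without replicate 2 and by DESeq2, the fetal and resident genes that fell numbered 0, 2 and 0 and the microglial ones 0, 0 and 0, while without the Epcam+ library they numbered 9 and 5. Without replicate 1 the edgeR adjusted p was 0.576 for Gpr34, 0.435 for Slc40a1, 0.403 for Clec4n and 0.075 for Igf1, and without replicate 2 it was 0.129 for Gpr34 and 0.325 for Slc40a1. Of 7 alveolar macrophage genes tested, 3 fell and none rose, and 2 fell without replicate 1, 1 without replicate 2 and 1 by DESeq2. Lpl, lipoprotein lipase, stood at 68.2, 101 and 82.4 CPM in dividing macrophages, against 173, 161 and 213 in other macrophages (log2 fold change -1.09, SE 0.167, edgeR adjusted p = 9.51e-06). Spp1, osteopontin, had a log2 fold change of -0.83 (-0.47, edgeR adjusted p = 0.46, without Epcam+ Icam+ replicate 2), at 224 and 227 CPM in dividing and other macrophages of the Epcam+ library.

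Some lysosomal and iron handling genes fell in CPM, beside 2.26% of all genes tested. Of 32 lysosome and phagocytosis genes tested, 9 fell and none rose, at a median log2 fold change of -0.31, and they summed to 787, 790 and 687 UMIs per dividing macrophage, against 668, 677 and 752 per other macrophage. Cd63, a lysosomal tetraspanin, stood at 443, 430 and 388 CPM in dividing macrophages, against 595, 609 and 787 in other macrophages (log2 fold change -0.60, SE 0.107, edgeR adjusted p = 0.000116). Apoe, which carries lipid out of macrophages, stood at 15767, 15516 and 11541 CPM in dividing macrophages, against 19786, 19658 and 16820 in other macrophages (log2 fold change -0.47, edgeR adjusted p = 0.012). The classes did not overlap, and the call needed both Epcam+ Icam+ libraries, with an edgeR adjusted p of 0.696 without Epcam+ Icam+ replicate 1 and 0.863 without replicate 2. Hmox1, which breaks down heme, stood at 1006, 817 and 412 CPM in dividing macrophages, against 1379, 1214 and 833 in other macrophages (log2 fold change -0.64). Of the 16 iron and heme genes tested, 2 fell and none rose. With either Epcam+ Icam+ library left out, 1 lysosomal gene fell, against 16 of 33 without the Epcam+ library and 2 by DESeq2. The iron and heme genes that fell numbered 1 without Epcam+ Icam+ replicate 1, 0 without replicate 2, 4 without the Epcam+ library and 1 by DESeq2, and Hmox1 had an edgeR adjusted p of 0.076 without replicate 2.

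Immune signalling genes were called in small numbers, which depended on the setting. Of 26 chemokines and cytokines tested, 1 rose and 2 fell. Cxcl10, a chemokine induced by interferon, stood at 43.4, 215 and 118 CPM in dividing macrophages, against 38.0, 59.0 and 60.0 in other macrophages (log2 fold change 1.21, SE 0.224, edgeR adjusted p = 0.000209). The rise lay mostly in Epcam+ Icam+ replicate 2, and without that library the log2 fold change was 0.33 (edgeR adjusted p = 0.893). Ccl24, an eotaxin, stood at 191, 170 and 129 CPM in dividing macrophages, against 281, 225 and 253 in other macrophages (log2 fold change -0.60). Of 12 interferon response genes tested, 3 fell and none rose, led by Ifi27l2a, at 273, 221 and 224 CPM in dividing macrophages, against 486, 334 and 400 in other macrophages (log2 fold change -0.81, SE 0.114, edgeR adjusted p = 2.24e-06). Of 11 antigen presentation genes 3 fell and of 19 NF-kB and Toll receptor genes 1 fell, with none that rose in either list. Over all genes tested, 2.26% fell. Without the Epcam+ library 8 of 26 chemokines and cytokines, 3 of 13 interferon genes, 3 of 11 antigen presentation genes and 4 of 19 NF-kB and Toll receptor genes fell. With either Epcam+ Icam+ library left out, no antigen presentation or NF-kB gene passed in edgeR, and by DESeq2 none of the chemokines and cytokines, antigen presentation genes or NF-kB genes did. Ccl24 did not pass without Epcam+ Icam+ replicate 1 (edgeR adjusted p = 0.202).

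Growth and metabolism lists showed few calls. Of 23 MYC target and ribosome biogenesis genes tested none passed in edgeR or in DESeq2, 5 had an unadjusted edgeR p under 0.05, and their median log2 fold change was 0.22. None of 17 glycolysis genes, 12 cholesterol and fatty acid genes or 17 growth factor receptors of myeloid cells passed with either tool, with 2, 1 and 4 under 0.05 unadjusted and medians of 0.10, 0.26 and -0.37. Of 25 nuclear genes of oxidative phosphorylation 1 rose, and of 32 cytoskeleton and migration genes 1 fell. Over all genes tested, 4.48% rose and 2.26% fell. Per cell at full depth the glycolysis list summed to 123, 122 and 217 UMIs in dividing macrophages, against 69.1, 75.4 and 137 in other macrophages, a ratio of 1.78, 1.62 and 1.58, close to or above the ratio of all UMIs. Of 23 immediate early and dissociation response genes 1 rose and 2 fell, and of 11 p53 targets 1 fell. Without the Epcam+ library 3 MYC targets rose, and 6 immediate early genes and 5 cytoskeleton genes fell.

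Outside the lists, the named genes that fell were Wfdc17, a small secreted protein of activated macrophages, the transcription factor Cebpd, Tent5a, Plxdc2, Trafd1, Slfn5, Bbx, Pla2g7 and Bin3. Wfdc17 stood at 14.0, 18.2 and 11.8 CPM in dividing macrophages, against 46.0, 37.3 and 46.7 in other macrophages (log2 fold change -1.48, SE 0.323, edgeR adjusted p = 0.0017). Cebpd stood at 10.9, 23.1 and 35.3 CPM in dividing macrophages, against 44.0, 31.9 and 86.7 in other macrophages (log2 fold change -1.26, SE 0.327, edgeR adjusted p = 0.0108). These are low counts, and without Epcam+ Icam+ replicate 1 Wfdc17 (-1.21) and Cebpd (-0.71) did not pass, with edgeR adjusted p = 0.244 and 0.663. The other 7 had log2 fold changes between -1.16 for Tent5a and -0.96 for Bin3. Of these, Tent5a, Trafd1, Bbx, Pla2g7 and Bin3 did not pass with either Epcam+ Icam+ library left out, with edgeR adjusted p between 0.0932 and 0.449. Plxdc2 did not pass without replicate 2 (edgeR adjusted p = 0.521). Plxdc2, Slfn5 and Pla2g7 had 0 UMIs in the dividing macrophages of the Epcam+ library. Sftpc, the surfactant gene of distal lung epithelium, was the 1 epithelial marker of 10 tested that rose, at 267, 367 and 247 CPM in dividing macrophages, against 197, 155 and 380 in other macrophages (log2 fold change 0.61, edgeR adjusted p = 0.00609). It was higher in the 2 Epcam+ Icam+ libraries only, and without replicate 2 its log2 fold change was 0.10 (edgeR adjusted p = 0.958). Among epithelial cells, dividing ones had 6895, 7289 and 2600.4 CPM of Sftpc, against 3738, 3821 and 1914 in other epithelial cells.

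The contrast of dividing with other macrophages was then compared between the sorts, as the contrast in the Epcam+ Icam+ libraries minus that in the Epcam+ library. Of 7289 genes tested with edgeR, 10 (0.137%) had a higher and 32 (0.439%) a lower contrast in the Epcam+ Icam+ libraries, 0.576% in either direction, and 593 had an unadjusted p under 0.05. Cycle genes with a larger contrast there were Hist1h2ap (difference of log2 fold changes 2.23, SE 0.345, edgeR adjusted p = 5.23e-07), Birc5 (2.11, SE 0.474, 0.00357), the mitotic entry gene Cdca3 (2.68, SE 0.682, 0.0199) and the chromatin protein Hmgb2 (0.85, SE 0.229, 0.0469). For Cdca3 the levels were 97.7, 129 and 118 CPM in dividing macrophages, against 12, 11.5 and 86.7 in other macrophages. In Birc5 and Cdca3 the dividing levels were alike across libraries and the other macrophages of the Epcam+ library were the high ones. Most of the genes with a lower contrast had names that begin like those of ribosomal protein genes. The chemokine genes Cxcl2 (-1.65, SE 0.209, edgeR adjusted p = 1.31e-10) and Ccl2 (-0.98, SE 0.236, 0.0128) were also lower, with Cxcl2 at 1910, 2327 and 1224 CPM in dividing macrophages, against 2419, 3121 and 553 in other macrophages.

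Ap1s1, an adaptor of vesicle coats (difference 3.27), Cbx3, heterochromatin protein 1 gamma (2.72), and Ifitm3, an interferon induced membrane protein (1.13), also had a higher contrast in the Epcam+ Icam+ libraries. In the dividing macrophages of the Epcam+ library Ap1s1 rested on 2 UMIs and Cbx3 on 3, so the sizes of these differences are uncertain. Junb, an immediate early transcription factor (-0.94), and Eef1a1, a translation elongation factor (-0.52), had a lower one. Prrc1, Osbpl8 and Sla were called as well, but had 0 UMIs in the other macrophages of the Epcam+ library, so no fold is given. The Epcam+ side of every value rests on 17 dividing and 30 other macrophages with 85000 and 150000 UMIs, in 1 library of its own software version, so sort and library cannot be told apart. With 1 residual degree of freedom, the spread behind these p-values comes from the Epcam+ Icam+ libraries alone, and the single Epcam+ library is assumed to vary like them.

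Dividing macrophages were last compared with dividing epithelial cells of the same libraries. In epithelium alone, 922 (8.09%) of 11403 genes rose and 638 (5.6%) fell in dividing against other epithelial cells, and 71 of 73 G2 and mitosis genes and 37 of 48 S phase genes were among those that rose. The median log2 fold change of the G2 and mitosis list was 2.78 over 61 genes in macrophages and 2.30 over 73 in epithelium. That of the S phase list was 1.28 over 43 genes in macrophages and 0.91 over 48 in epithelium. These medians are therefore over unlike sets of genes. The test of the macrophage contrast minus the epithelial contrast, over 11593 genes, called 4 higher (0.0345%) and 14 lower (0.121%), 0.155% in either direction, and 872 had an unadjusted p under 0.05. Of the 73 G2 and mitosis genes tested, none was called higher and 1 lower in edgeR, with 12 at an unadjusted p under 0.05, and of the 48 S phase genes none was called, with 13 under 0.05. The medians of the difference were 0.53 and 0.50, against 0.06 over all genes, so most cycle genes had a larger fitted contrast in macrophages without passing the test gene by gene.

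The 1 G2 and mitosis gene called was Gas2l3, which links actin and microtubules in late division. It stood at 57.4, 33.1 and 23.5 CPM in dividing macrophages, against 41.3, 49.5 and 13.3 in other macrophages, a log2 fold change of -0.05. In dividing epithelial cells it stood at 25.6, 23.3 and 12.9 CPM, against 4.13, 4.37 and 5.52 in other epithelial cells, a log2 fold change of 2.06. The macrophage contrast minus the epithelial contrast was -2.06 (SE 0.363, edgeR adjusted p = 0.00469), and it was -2.47 without Epcam+ Icam+ replicate 1 (edgeR adjusted p = 0.085) and -1.66 without replicate 2 (0.305). Gas2l3 was thus present in other macrophages at a level above that of dividing epithelial cells in the Epcam+ Icam+ libraries. In the Epcam+ library its level in other macrophages rests on 2 UMIs, so it cannot be told apart from that of dividing epithelial cells.

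Among genes with a higher contrast in macrophages, Hist1h2bc, an H2B gene, had 116, 131 and 141 CPM in dividing macrophages, against 126, 108 and 187 in other macrophages. In epithelium it had 63.8, 59.4 and 37.8 CPM in dividing cells, against 113, 128 and 122 in other cells, so the difference of 1.24 (SE 0.208, edgeR adjusted p = 0.00313) lay in the epithelial side. Anxa1, annexin A1 (difference 0.97, edgeR adjusted p = 0.0331), had a log2 fold change of 0.31 in macrophages, which did not pass, and of -0.62 in epithelium. Scgb3a2, a secretoglobin of airway cells, had 79.1, 193 and 0 CPM in dividing macrophages, against 111, 46.1 and 66.7 in other macrophages (difference 1.94, edgeR adjusted p = 0.0211). S100a10, an annexin partner, rose by 0.43 on the log2 scale in dividing macrophages, against -0.31 in epithelium (difference 0.78, edgeR adjusted p = 0.012). Anxa1 did not pass with any library left out (edgeR adjusted p = 0.81, 0.683 and 0.062), and with Epcam+ Icam+ replicate 1 or 2 left out neither S100a10 (0.847 and 0.692) nor Hist1h2bc (0.085 and 0.479) did. Scgb3a2 rested on Epcam+ Icam+ replicate 2, since without it the difference was 0.10 (edgeR adjusted p = 1).

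Genes with a lower contrast in macrophages were mostly myeloid genes. Lyz2 had a difference of -1.93 (SE 0.28, edgeR adjusted p = 0.000365), Cd52, a leukocyte surface peptide, of -2.46 (SE 0.289, edgeR adjusted p = 1.58e-05) and Plac8 of -3.48 (SE 0.411, edgeR adjusted p = 1.58e-05). The survival genes Bcl2a1b (-2.10) and Bcl2a1d (-2.97), which are near copies, the platelet and leukocyte protein Plek (-1.96) and the galectin Lgals9 (-4.82) were called as well. Their epithelial levels were low, and mostly higher in the dividing cells of the Epcam+ Icam+ libraries, with Lyz2 at 35.7, 19.0 and 3.73 CPM in dividing epithelial cells, against 6.75, 9.77 and 4.70 in other epithelial cells. Lgals9 had at most 1.2 CPM in dividing epithelial cells and 0 in other epithelial cells. Myeloid RNA in dividing epithelial barcodes thus moved with these differences, and its part in them was not tested. Without Epcam+ Icam+ replicate 1 the test called 1 higher and 2 lower, without replicate 2 it called 0 and 12, and without the Epcam+ library 14 and 209. Of these myeloid genes, Cd52 and Plac8 passed with each library left out in turn, while Lyz2, Bcl2a1b, Bcl2a1d, Plek and Lgals9 did not pass without replicate 1.

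**Figure D5:**
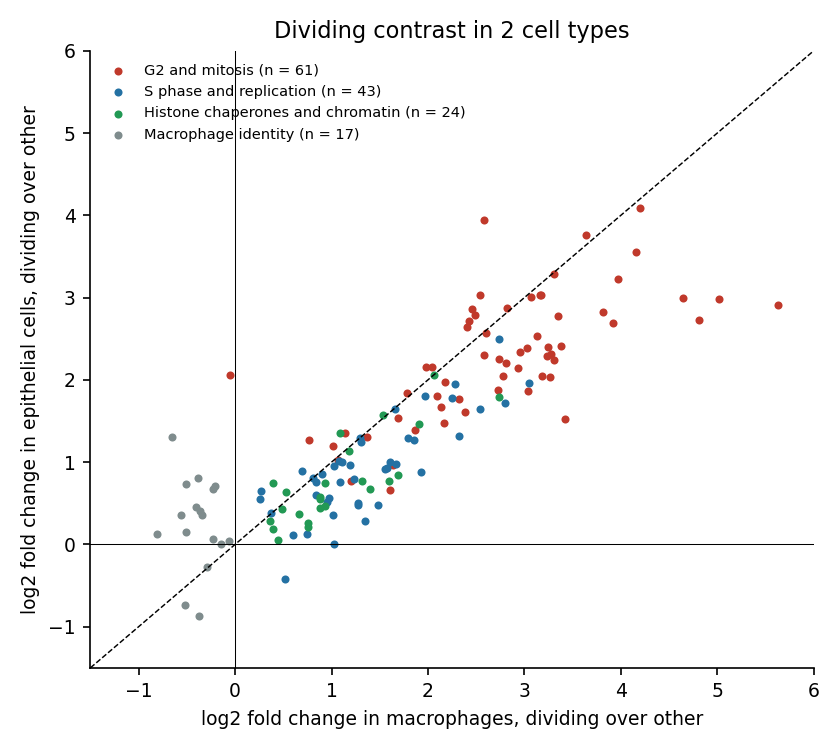
Log2 fold change of dividing over other cells in macrophages (x axis) and in epithelial cells (y axis) for the genes of 4 lists tested in both, with 1 point per gene and a dashed line of equality. Cycle genes lie in the upper right with most points below the line, where the contrast is larger in macrophages. The red point near 0 on the x axis is Gas2l3, at -0.05 in macrophages and 2.06 in epithelium, and macrophage identity genes lie at or left of 0 on the x axis.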

How the data were processed

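Single-cell RNA was measured in 3 libraries with a droplet method that counts unique molecules (UMIs) at the 3' end of transcripts. The deposited values are raw UMI counts per gene and cell, made by the authors with Cell Ranger, version 2.1.1 on build mm10 per the submitters' processing notes, while the file headers name version 5.0.1 for the Epcam+ Icam+ libraries and 3.0.2 for the Epcam+ library. The 3 tables were joined by Ensembl ID on 30406 genes. Barcodes under 1000 UMIs or 500 genes, or above 10% mitochondrial UMIs, were dropped. Macrophages had at least 20 UMIs of C1qa, C1qb and C1qc and at most 5 of Epcam, and dividing ones at least 3 of Mki67 and Top2a. These members and all gene lists were chosen with earlier results of these data known.

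Each cell was thinned to 5000 UMIs, shallower cells were left out, and counts were summed per library and class, which gave 6 sums of 85000 to 1500000 UMIs. Sums were compared with edgeR 4.0.16 in R 4.3.3 (quasi-likelihood test, TMM scaling, filterByExpr, Benjamini-Hochberg adjustment over all genes tested, threshold 0.05) with library as a block, since both classes of a library are the same suspension and run. The difference between sorts was the interaction of class and sort, and the difference from epithelium used 12 sums with library within cell type as a block. DESeq2 1.42.0 was an alternative, beside other depths, scalings, filters, member rules and each library left out. Per-cell scores for doublets came from scrublet in scanpy 1.11.5, with the highest 0.8% per 1000 barcodes taken out in an alternative only. All genes of the 31 lists could be named, and beyond them the 12 genes with the largest fold change in each direction among genes called, averaging 20 CPM or more and going 1 way in all libraries, and the 8 with the largest difference in each direction in the other tests. Gene models, mitochondrial, ribosomal protein, globin and rule genes were not named by size. The edgeR steps were tested on simulated sums, made with less spread than the data showed. In the main test they called 72 of 95 genes changed by 1 on the log2 scale and 89 of 92 changed by 2. Against epithelium they called 29 of 93 and 60 of 90, and between the sorts few. Genes that differ can therefore be missed in the tests between sorts and against epithelium. Intervals cover counting error only. Some genes of the lists are counted but not reported here by name.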

Additional observations from a re-analysis of the deposited data

Results flagged for a closer look

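The contrast of dividing with other macrophages differed between the sorts for 12 named genes by the test of the interaction in edgeR. The Epcam+ side is 1 library, so the spread in this test comes from the Epcam+ Icam+ libraries alone. Given as the contrast in the Epcam+ Icam+ libraries minus that in the Epcam+ library, the differences on the log2 scale were 3.27 for Ap1s1, 2.72 for Cbx3, 2.68 for Cdca3, 2.23 for Hist1h2ap, 2.11 for Birc5, 1.34 for Sftpc, 1.13 for Ifitm3 and 0.85 for Hmgb2. They were -1.65 for Cxcl2, -0.98 for Ccl2, -0.94 for Junb and -0.52 for Eef1a1. The values for Ap1s1 and Cbx3 rest on 2 and 3 UMIs in the dividing macrophages of the Epcam+ library. Junb stood at 671, 696 and 859 CPM in dividing macrophages, against 797, 895 and 600.0 in other macrophages, so the Epcam+ library went the other way. Ifitm3 stood at 332, 294 and 294 CPM in dividing macrophages, against 351, 372 and 807 in other macrophages, so its high value was that of the other macrophages of the Epcam+ library.

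The contrast also differed between macrophages and epithelium for 12 named genes, by the test of the macrophage contrast minus the epithelial contrast. The differences on the log2 scale were 1.94 for Scgb3a2, 1.24 for Hist1h2bc, 0.97 for Anxa1 and 0.78 for S100a10. They were -4.82 for Lgals9, -3.48 for Plac8, -2.97 for Bcl2a1d, -2.46 for Cd52, -2.10 for Bcl2a1b, -2.06 for Gas2l3, -1.96 for Plek and -1.93 for Lyz2. The value for Lgals9 rests on a fit to other epithelial cells with 0 UMIs in every library and is no measured size.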

How the results depend on the processing

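The counts of 286 genes higher and 144 lower in dividing macrophages were 135 and 79 at 2000 UMIs per cell, 523 and 424 at 10000, 742 and 895 without thinning, and 119 and 12 by DESeq2. With no replicate block, so with library left out of the design, they were 73 and 0, and the sums are paired because both classes come from 1 library. The rule applied after thinning gave 184 higher, a threshold of 6 UMIs gave 278 lower, Epcam at most 1 gave 221 lower, and leaving out cells with more than 2 epithelial marker UMIs, an alternative chosen after seeing the data, gave 69 lower. Leaving out 1 library gave 120 to 411 higher and 19 to 314 lower. Of the 430 calls, 131 were also called by DESeq2, 73 with no replicate block, 132 without Epcam+ Icam+ replicate 1, 149 without replicate 2 and 430 without the Epcam+ library. Sftpc turned to -0.62 with the rule applied after thinning and to -0.29 with at most 2 epithelial marker UMIs, and the cause was not tested. Between sorts, no thinning gave 35 higher and 117 lower and no filter gave 16 lower, and Ifitm3 turned to -0.012 without thinning. Leaving out a library there leaves no residual degrees of freedom, so it was not run. Against epithelium, no thinning gave 11 higher and 186 lower, no filter 8 and 101, no replicate block 0 and 0, and leaving out 1 library 0 to 14 higher and 2 to 209 lower. The shares of dividing macrophages were 39.7%, 40.3% and 54.2% at 2 UMIs, 20.8%, 19.9% and 12.5% at 6 UMIs and 12.4%, 12.7% and 6.38% with the rule at 5000 UMIs. The Epcam+ library, with 17 dividing macrophages, limits every value given for it.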

Other observations

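Of the cyclins, kinases and inhibitors, 1 of 21 genes tested rose and none fell in dividing macrophages, while 9 of 32 rose and 8 fell in dividing epithelial cells. The shares of all genes tested that rose and fell were 4.48% and 2.26% in macrophages and 8.09% and 5.6% in epithelium. None of 32 was called in the edgeR test of the macrophage contrast minus the epithelial contrast, with 5 at an unadjusted p under 0.05, so the counts are not shown to differ. Ccnd2, cyclin D2, had a log2 fold change of -0.43 in macrophages, which did not pass. In epithelium it had 237, 221 and 280 CPM in dividing cells, against 493, 501 and 572 in other cells. The cell types differ in the number of UMIs behind each sum, and its part in these counts was not tested.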
